A study of Mus musculus with 6 samples.

Results

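Serpins, serine proteases and their small inhibitors were examined in the lungs of mice that express the human sex-determining gene SRY in all tissues. Serpins are inhibitors that offer a target protease a flexible loop as bait. When the protease cuts it, the serpin changes shape and traps the enzyme in a dead complex. In the lung such inhibitors are known to hold leukocyte elastase, clotting enzymes and complement enzymes in check. A second layer acts at the surface of epithelial cells, where membrane-anchored proteases such as matriptase and prostasin are restrained by Kunitz-type inhibitors and cut ion channels and receptors.

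The members were chosen by gene symbol. They are the probes whose symbol begins with Serpin followed by a clade letter from a to i and a digit, with Prss and a digit, with Klk and a digit or b, or with Tmprss, together with the genes Slpi, Wfdc2, Spint1, Spint2 and St14. Serpinh1 was left out by the rule. This gave 147 of the 25697 probes on the array, for 115 of its 18138 gene symbols.

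Lungs came from 6-day-old male mice of strain FVB (FVB/N in the study's methods), 3 hSRY-OFF and 3 hSRY-ON, with 1 Illumina bead array for each. By the study's methods all carried the Signalox-hSRY transgene in a single copy, in which the ubiquitous CAG promoter drives a red fluorescent protein until Cre removes it. In hSRY-ON mice Cre from the eggs of Ddx4-Cre mothers had recombined the transgene in the zygote, so that tagged human SRY and a green fluorescent protein were made in place of the red protein. The hSRY-ON mice taken for the arrays carried no Ddx4-Cre transgene. In hSRY-OFF mice the transgene was not recombined, although the study also calls its comparison animals control littermates, a name it gives to mice without the transgene. The responder mice come from 1 integration site, and the array holds no probe for human SRY.

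Values are normalized log2 intensities, on which a difference of 1 is a 2-fold change. A probe counted as detected on an array when its detection p was under 0.05, and a probe was tested when it was detected on at least 3 of the 6 arrays. Detected probes numbered 13191 to 14134 on each array. The correlation between arrays across tested probes was 0.991 to 0.993 within hSRY-OFF, 0.972 to 0.980 within hSRY-ON and 0.935 to 0.959 between the groups. The alveolar type I cell markers Ager and Aqp5, the type II markers Sftpc, Sftpb and Abca3 and the club cell marker Scgb1a1 were detected on every array. In whole tissue, fewer cells of a type and less RNA per cell cannot be told apart. The study describes biological triplicates with 3 mice a group, so each array was taken as a separate mouse. With 3 arrays a group the smallest p of an exact permutation test on a single probe is 0.1. The tests below therefore rest on limma with Benjamini-Hochberg adjustment over every tested probe, and a probe was called at an adjusted p under 0.05.

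Most members were silent in this tissue at the sensitivity of the array. Of the 147 probes, 92 were detected on no array, 11 on too few arrays to be tested, and 44 probes for 37 genes were tested. Among the genes whose probes were detected on no array were Slpi, the secreted inhibitor of leukocyte elastase, Serpinc1, the plasma inhibitor of thrombin, Serpind1, another thrombin inhibitor, and the trypsin gene Prss2. Of the 34 kallikrein probes, 23 were detected nowhere, as were 22 of the 29 probes of clade B serpins, the largely intracellular branch. For these probes the data give only a limit of detection and no comparison.

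**Figure D1:**
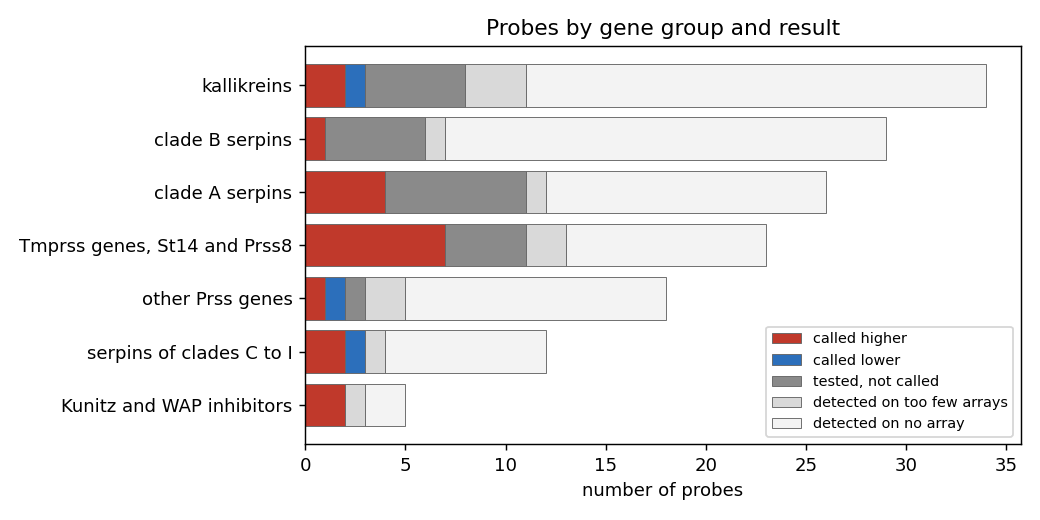
Number of probes (x axis) in each of the 7 gene groups (y axis), split by result. The palest segments are probes detected on no array, and they make up most of the kallikrein and clade B bars. Red segments, called higher in hSRY-ON, total 19 probes and blue segments, called lower, total 3.

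Among the 44 tested probes, 19 rose and 3 fell in hSRY-ON lungs (limma, adjusted p from 0.00147 to 0.0496). They belong to 16 and 3 genes. Over all 13841 tested probes, 13.6% were called higher and 13.3% lower, or 26.9% in either direction, so the 22 calls among the members (50%) lay above that background. The median log2 change of the tested members was 0.56 and that of all tested probes -0.03. Of the 22 tested probes not called, 19 also had a change above 0, and their changes ran from -0.30 to 1.15. In 27 of the 44 probes the groups did not overlap, against 46.6% of all tested probes. The hSRY-ON values lay above in 24 and below in 3 of these, where 22.4% and 24.1% of all tested probes did so. A probe seen only in hSRY-ON lungs had to differ in order to be tested. This applies to 4 of the called probes, both of Klk11 and those of Serpina7 and Tmprss13. Among the 28 members detected on all 6 arrays, 15 were called higher and 2 lower when the test was run on such probes alone, against 29.3% of 11783 probes called in either direction. The number of member calls fell to 12 without hSRY-OFF replicate 1 (10 higher) and to 13 without hSRY-OFF replicate 2 (11 higher), while 11.9% and 12.6% of all probes were then called.

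**Figure D2:**
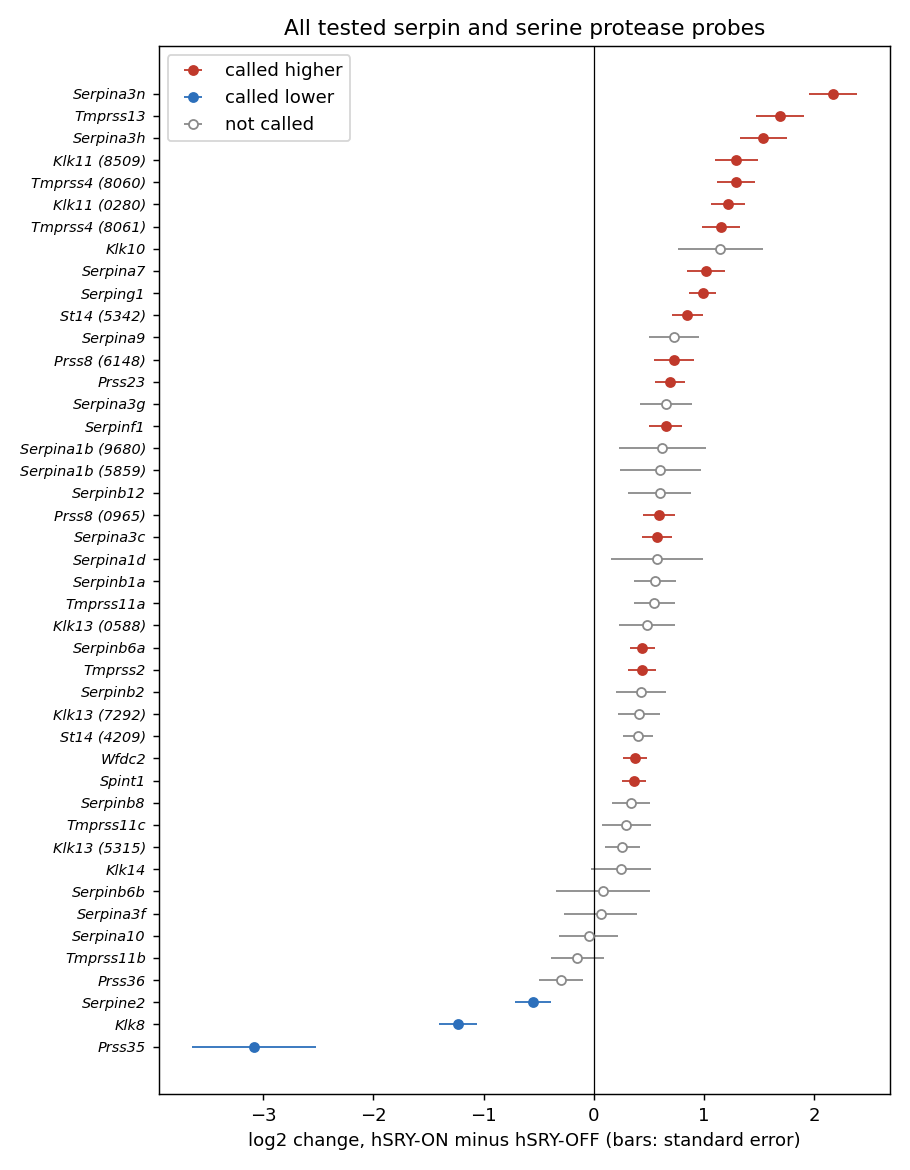
Log2 change, hSRY-ON minus hSRY-OFF, of each of the 44 tested probes (x axis) with its standard error as a bar, and the gene on the y axis. Digits in brackets are the last of the probe number where a gene has several probes. Red marks the 19 probes called higher, blue the 3 called lower and open circles the 22 not called. The points reach from -3.09 for Prss35 to 2.17 for Serpina3n.

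The clade A serpins, which are secreted and include many plasma inhibitors, held the largest rise. Serpina3n encodes an inhibitor of leukocyte proteases that is made in quantity during inflammation. Its probe (ILMN_1246800) read 9.53, 9.55 and 10.01 on the hSRY-OFF arrays and 11.94, 12.18 and 11.49 on the hSRY-ON arrays. All hSRY-ON values lay above all hSRY-OFF values. The mean went from 9.70 ± 0.27 (SD, n = 3) to 11.87 ± 0.35 (SD, n = 3), a log2 change of 2.17 ± 0.22 (SE), or 4.51-fold (limma, adjusted p = 0.00147). The related Serpina3h (ILMN_2889832) read 9.50, 9.33 and 9.85 in hSRY-OFF and 11.44, 10.79 and 11.07 in hSRY-ON lungs. It rose 2.91-fold, by 1.54 ± 0.21 on the log2 scale (SE, limma, adjusted p = 0.00370). Serpina3c (ILMN_2730054) rose less, from 9.01, 9.02 and 9.29 to 9.71, 9.82 and 9.53. Its change was 0.57 ± 0.14 (SE, limma, adjusted p = 0.0233), and the groups were separate. The call was lost without hSRY-OFF replicate 1 or 2 or hSRY-ON replicate 2 and with the replicate number as a block, with adjusted p up to 0.0960 (limma).

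Not all relatives in this family passed the test. Serpina3g (ILMN_2725927) had a change of 0.65, larger than that of Serpina3c, but hSRY-OFF replicate 3 read 8.81, above the lowest hSRY-ON value of 8.76, and it was not called (limma, adjusted p = 0.0798). Serpina3f (ILMN_2742861) had a change of 0.06 ± 0.33 (SE). Probes of such close relatives may bind each other's transcripts, and the table gives no probe sequences with which to examine this. The assignment of a rise to 1 particular Serpina3 gene is therefore uncertain.

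In the RefSeq annotation (GRCm38.p6) Serpina3b, Serpina3c, Serpina3f and Serpina3g lie side by side, and Serpina3n lies next to Serpina3m and Serpina3k. Whether the change differed between these relatives was not tested. The promoters that the RefSeq table gives for the tested ones are shown, each 300 bases from 250 before to 50 after a transcription start. It gives none for Serpina3h. For Serpina3f the upstream of its 2 listed starts is shown. Capitals mark AGAACA, the shorter element that the glucocorticoid receptor recognises, searched on both strands.
Serpina3n, chr12:104406458-104406757, + strand: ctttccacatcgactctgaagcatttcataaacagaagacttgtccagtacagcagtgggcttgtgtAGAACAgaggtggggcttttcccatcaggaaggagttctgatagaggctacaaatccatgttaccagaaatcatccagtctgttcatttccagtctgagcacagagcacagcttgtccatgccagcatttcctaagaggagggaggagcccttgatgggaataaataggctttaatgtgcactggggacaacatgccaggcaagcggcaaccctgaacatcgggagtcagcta
Serpina3c, chr12:104153823-104154122, - strand: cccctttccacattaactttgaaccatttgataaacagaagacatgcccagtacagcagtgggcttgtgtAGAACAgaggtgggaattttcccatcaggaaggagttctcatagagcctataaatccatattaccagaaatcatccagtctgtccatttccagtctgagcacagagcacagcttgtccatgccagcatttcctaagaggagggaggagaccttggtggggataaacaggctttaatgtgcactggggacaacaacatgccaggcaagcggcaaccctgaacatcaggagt
Serpina3f, chr12:104214294-104214593, + strand: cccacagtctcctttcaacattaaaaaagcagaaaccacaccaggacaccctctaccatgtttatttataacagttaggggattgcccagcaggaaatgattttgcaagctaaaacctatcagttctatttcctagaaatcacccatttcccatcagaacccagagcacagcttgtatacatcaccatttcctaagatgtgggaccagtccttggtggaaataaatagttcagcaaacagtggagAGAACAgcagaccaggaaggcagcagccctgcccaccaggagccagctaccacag
Serpina3g, chr12:104235897-104236196, + strand: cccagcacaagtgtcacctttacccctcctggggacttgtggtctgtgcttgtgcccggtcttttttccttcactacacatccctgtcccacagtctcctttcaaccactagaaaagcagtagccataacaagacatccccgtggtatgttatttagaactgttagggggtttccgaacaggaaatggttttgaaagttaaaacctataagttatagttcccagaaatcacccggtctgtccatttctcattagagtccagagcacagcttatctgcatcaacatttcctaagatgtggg

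The promoters of Serpina3n and Serpina3c were 89.9% identical over a global alignment of 306 columns, and both hold AGAACA, starting 183 and 180 bases before the start site. Those of Serpina3n and Serpina3f were 61.9% identical, and the Serpina3f window also holds AGAACA, starting 5 bases before the start site. The Serpina3g window shared 37.4% with that of Serpina3n and held no match. AGAACA occurred in 19.0% of the 32851 promoters of the table, so a match is common. It was present in 27.2% of the 114 member promoters and in 15.0% of the 20 promoters of members called higher. The element AACAAT, which SRY and SOX proteins bind, was searched on both strands too and was present in 10.7% of all promoters. Among the 13 called members for which the table gives promoters, none of their 23 windows held it. The members with a match were 9 genes, of which Serpinb12 and Tmprss11b were tested and neither was called. These counts describe letters in short windows and not binding.

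Other clade A members were dim. Serpina7 encodes thyroxine-binding globulin, a serpin that carries hormone and inhibits nothing. Its probe (ILMN_1225985) was detected on no hSRY-OFF array and on all hSRY-ON arrays, at 6.13, 6.31 and 5.80. Its change, computed from undetected hSRY-OFF values, was called (limma, adjusted p = 0.00790), but the probe had to differ in order to be tested. In background-corrected values Serpina7 was at least 1.72-fold higher in hSRY-ON. Such a bound compares the mean of the hSRY-ON arrays with the detection limit of the hSRY-OFF arrays, taken as the dimmest probe each of them detected or the probe's own value where that is higher. For the alpha-1-antitrypsin genes, main plasma inhibitors of elastase, the changes of the tested Serpina1b and Serpina1d probes lay between 0.57 and 0.62 with overlapping groups, and none was called (limma, adjusted p from 0.258 to 0.338). The probes of Serpina1a were detected on 1 array of each group at most.

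Many plasma serpins are made chiefly in the liver. Of 9 hepatocyte markers, Alb, Fgb and Ttr were detected on no array, and Ahsg, Apoa1 and Apoa2 on hSRY-ON arrays alone. Apoa2 was detected on 2 arrays and not tested, and 4 of the 5 tested markers were called higher. Ahsg and Apoa1 are among these 4 and, seen in hSRY-ON lungs alone, had to differ in order to be tested. The summed level of those 5 was 12.43 to 12.55 in hSRY-OFF and 12.89 to 13.39 in hSRY-ON on the log2 scale, a sum that includes Trf, which other tissues also express. The part of this difference in the serpin results was not tested.

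**Figure D3:**
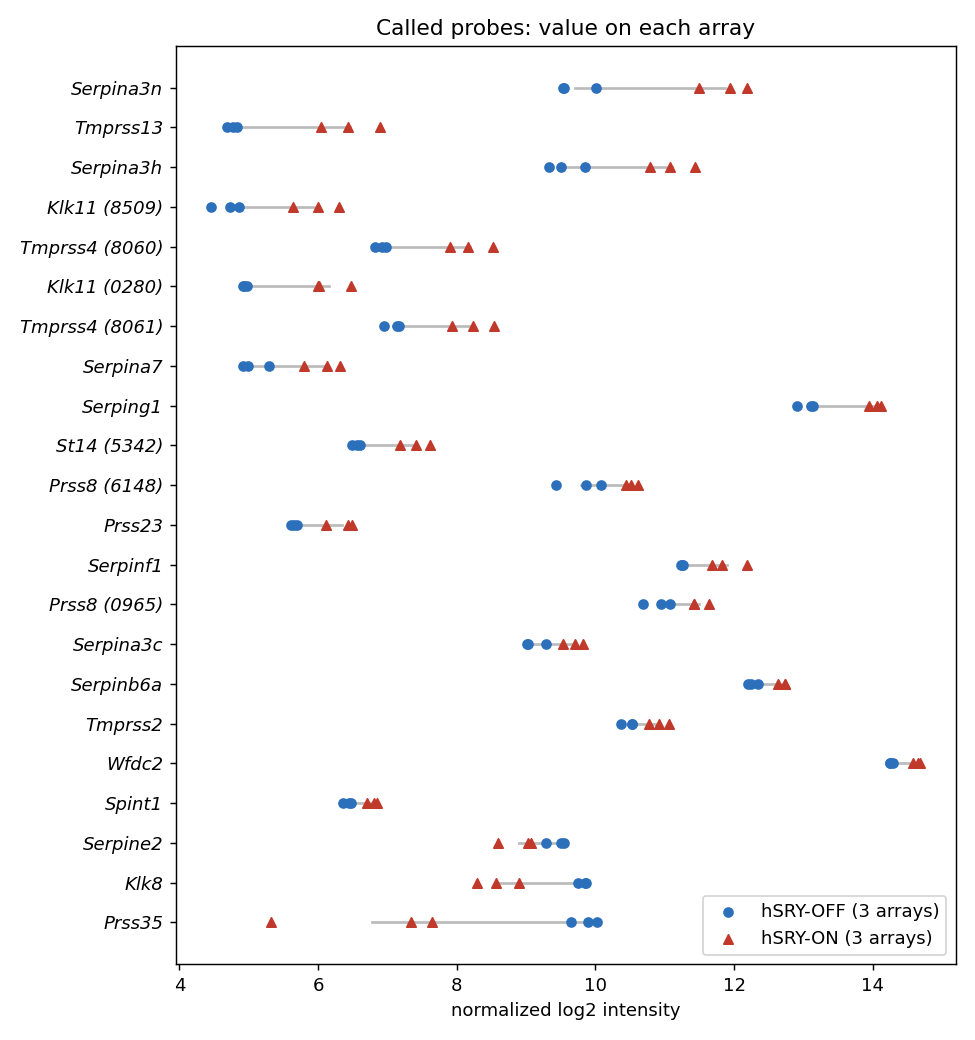
Normalized log2 intensity (x axis) of the 22 called probes (y axis, by gene, with the last digits of the probe number where a gene has several) on each array. Blue circles are hSRY-OFF arrays, red triangles hSRY-ON arrays and grey lines join the group means. The groups do not overlap in any of these probes, and the widest spread is that of Prss35 in hSRY-ON lungs.

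All 3 tested serpins of the later clades were called. Serping1 encodes C1 inhibitor, which blocks the first enzymes of complement and plasma kallikrein. Its probe (ILMN_2913166) read 12.91, 13.11 and 13.14 in hSRY-OFF and 14.12, 14.06 and 13.94 in hSRY-ON lungs. This is a change of 0.99 ± 0.12 (SE), or 1.98-fold (limma, adjusted p = 0.00281), and it was called under every alternative. Serpinf1 encodes pigment epithelium-derived factor, a serpin without inhibitory activity that restrains vessel growth. Its hSRY-OFF arrays lay close together at 11.23 to 11.26, and the hSRY-ON arrays read 11.83, 11.68 and 12.18. The change of 0.65 passed the threshold (limma, adjusted p = 0.0209). It no longer did without any single hSRY-OFF array.

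Serpine2, protease nexin-1, inhibits thrombin and urokinase and was the only serpin called lower. Its probe (ILMN_2883164) went from 9.51, 9.29 and 9.54 to 8.60, 9.07 and 9.03, a change of -0.55 ± 0.16 (SE, limma, adjusted p = 0.0460). The groups were separate but the nearest values were 9.29 and 9.07. The call was lost without any single array and with several other settings, while the change stayed between -0.63 and -0.40.

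Among clade B serpins, Serpinb6a, an intracellular inhibitor of granule proteases, was the only call. It read 12.24, 12.20 and 12.35 in hSRY-OFF and 12.74, 12.74 and 12.64 in hSRY-ON lungs, a change of 0.44 ± 0.11 (SE, limma, adjusted p = 0.0271). The call did not survive without any single hSRY-OFF array or without hSRY-ON replicate 2. Serpinb1a, an inhibitor of neutrophil elastase, had separate groups and a change of 0.55 but was not called (limma, adjusted p = 0.0689). Its hSRY-ON arrays read 7.43, 8.12 and 7.57 against 7.13 to 7.19 in hSRY-OFF. Serpinb6b differed most between hSRY-ON mice, at 8.13, 6.72 and 6.41, on both sides of the hSRY-OFF range of 6.74 to 7.19. Neutrophil markers were called higher in 3 of 6 tested genes, with Cxcr2 and Mmp8 detected on no array. Their summed level was 12.21 to 12.38 in hSRY-OFF and 13.05 to 14.88 in hSRY-ON lungs, and its part in the serpin values was not tested.

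The membrane-anchored proteases of epithelial cells were higher as far as they were called. Of the 11 tested probes of Tmprss genes, St14 and Prss8, 7 were called higher and 9 had separate groups. Over all tested probes, 13.6% were called higher and 46.6% had separate groups. The 7 include Tmprss13, which was seen in hSRY-ON lungs alone and had to differ in order to be tested. Tmprss4 encodes a transmembrane protease of epithelial and tumour cells. Its probe ILMN_2428060 read 6.98, 6.82 and 6.92 in hSRY-OFF and 8.17, 7.90 and 8.52 in hSRY-ON lungs, a change of 1.29 ± 0.17 (SE, limma, adjusted p = 0.00352). Its probe ILMN_2428061 changed by 1.15 (limma, adjusted p = 0.00521). Another probe was detected on 2 hSRY-ON arrays and no hSRY-OFF array and was not tested.

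Tmprss13, a relative of these enzymes, was detected by ILMN_2911788 on all hSRY-ON arrays, at 6.43, 6.90 and 6.04, and on no hSRY-OFF array. Its change, computed from undetected hSRY-OFF values, was called (limma, adjusted p = 0.00303). In background-corrected values Tmprss13 was at least 2.24-fold higher in hSRY-ON. Tmprss2, known for cutting viral surface proteins in airways, read 10.52, 10.37 and 10.53 in hSRY-OFF and 10.91, 11.06 and 10.77 in hSRY-ON lungs. Its change was 0.44 (limma, adjusted p = 0.0408) and lost its call without any array other than hSRY-ON replicate 3.

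St14 encodes matriptase and Prss8 prostasin, an enzyme pair that activates each other and the epithelial sodium channel. Prss8 was called by both of its probes. ILMN_2740965 read 10.68, 10.95 and 11.08 in hSRY-OFF and 11.43, 11.64 and 11.42 in hSRY-ON lungs, a change of 0.59 ± 0.15 (SE, limma, adjusted p = 0.0255). ILMN_2846148 changed by 0.73 (limma, adjusted p = 0.0260). Neither probe stayed called once hSRY-OFF replicate 1 or 2 or hSRY-ON replicate 2 was left out. For St14, ILMN_1255342 rose by 0.85 from 6.61, 6.57 and 6.50 to 7.61, 7.41 and 7.18 (limma, adjusted p = 0.00713), while ILMN_2624209 had a change of 0.40 and was not called (limma, adjusted p = 0.0729). The values of both St14 probes were separate between the groups.

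Inhibitors of these enzymes were tested with fewer probes. Spint1, the Kunitz inhibitor of matriptase, read 6.47, 6.44 and 6.37 in hSRY-OFF and 6.71, 6.81 and 6.85 in hSRY-ON lungs. The change of 0.36 ± 0.11 (SE) just passed the threshold (limma, adjusted p = 0.0496) and was 0.15 without background correction. The call held under 5 of 15 alternatives and was lost without any single array other than hSRY-ON replicate 1. Spint2 was detected on 1 array of each group by 1 of its probes and on none by the other. Wfdc2 encodes a secreted protein of the airway epithelium with the whey acidic protein fold also found in elastase inhibitors. It went from 14.26, 14.29 and 14.26 to 14.68, 14.58 and 14.66, a change of 0.37 ± 0.11 (SE, limma, adjusted p = 0.0398). Its groups were separate by more than the range of either, although the call was lost without any single array.

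Markers of epithelium moved with these genes. Of 5 tested epithelial markers, Cldn4, Krt18, Krt19 and Krt8 were called higher and Cdh1 was not, and the median change was 0.95. Their summed level was 12.03 to 12.05 in hSRY-OFF and 12.79 to 12.99 in hSRY-ON lungs on the log2 scale. In the marker lists each gene was counted by its tested probe with the highest mean. Airway secretory cell markers were called higher in 3 of 5 genes (median change 1.18). Scgb1a1 had a change of 0.007. Scgb3a2 was not called (change 0.48, limma, adjusted p = 0.0571), but its other probe was, with 1.52 (limma, adjusted p = 0.00166). Alveolar type II cell markers were called higher in 2 of 7 genes, Sftpb and Abca3 (median change 0.28). Of the others, Sftpc, Lamp3 and Etv5 had changes below 0, and Sftpa1 and Slc34a2 above 0. Mesothelial markers were called higher in 3 of 3 tested genes, Msln, Upk1b and Upk3b, with a median change of 1.36 and Lrrn4 detected on no array. Their summed level was 11.55 to 11.64 in hSRY-OFF and 12.57 to 13.23 in hSRY-ON lungs. Of the alveolar type I markers Ager, Aqp5 and Pdpn (named Gp38 on the array), 0 of 3 were called, and 0 had an unadjusted p under 0.05 (limma), with a median change of 0.17. Hopx and Rtkn2 were detected on no array. None of the markers of these epithelial and mesothelial lists was called lower. Other lists fell, with T and NK cell markers called lower in 4 of 5 tested genes (median change -1.47). Klrd1 is among these 4 and, detected on hSRY-OFF arrays alone, had to differ in order to be tested. Endothelial markers were called lower in 3 of 6 (median change -0.44) and pancreatic acinar markers in 1 of 2. Fibroblast, mast cell and cardiac muscle markers each had 1 gene called higher and 1 called lower. The part of any of these markers in the protease results was not tested.

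Kallikrein-related peptidases are secreted proteases that lie in a long tandem cluster. Of their 8 tested probes, 7 had a change above 0, and only that of Klk8 was below 0. Klk8, also called neuropsin, read 9.85, 9.87 and 9.74 in hSRY-OFF and 8.90, 8.29 and 8.57 in hSRY-ON lungs. It fell 2.35-fold, by 1.23 on the log2 scale, SE 0.17 (limma, adjusted p = 0.00384), and all hSRY-ON values lay below all hSRY-OFF values. Klk11, its neighbour beyond Klk9 and Klk10, was detected by both of its probes on every hSRY-ON array and on no hSRY-OFF array. In background-corrected values it was at least 1.82-fold higher by ILMN_2780280 and at least 1.61-fold higher by ILMN_2718509. Their changes, computed from undetected hSRY-OFF values, were called (limma, adjusted p = 0.00304 and 0.00542), but both probes had to differ in order to be tested. Klk10, between Klk8 and Klk11, had separate groups, with 5.37 to 5.76 in hSRY-OFF and 6.65, 5.90 and 7.57 in hSRY-ON lungs. Its change of 1.15 was not called (limma, adjusted p = 0.0659).

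Klk9, Klk7, Klk6, Klk5, Klk4 and Klk15 of the same cluster were detected on no array. Klk13 was detected on all arrays by 3 probes, whose changes of 0.26 to 0.48 came with overlapping groups and no call (limma, adjusted p from 0.148 to 0.264). Plasma kallikrein, Klkb1, was detected on 2 hSRY-ON arrays and on no hSRY-OFF array and was not tested.

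**Figure D4:**
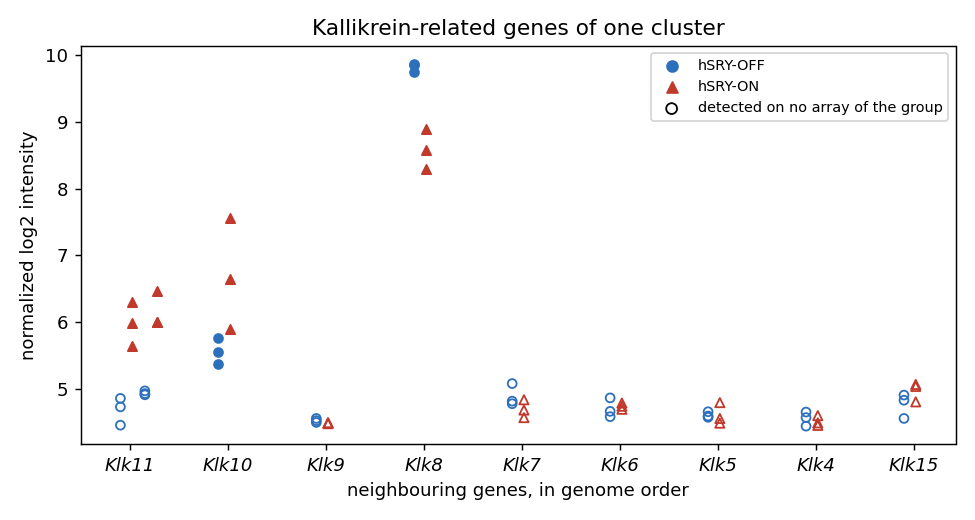
Normalized log2 intensity (y axis) of 9 kallikrein-related genes that lie side by side, in genome order (x axis), on each hSRY-OFF (blue circle) and hSRY-ON (red triangle) array. Open symbols are probes detected on no array of that group. Klk8 is lower and both Klk11 probes are higher in hSRY-ON lungs, while 6 genes stay at the level of undetected probes.

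The remaining Prss genes included the largest change of any member. Prss35 encodes a secreted protein with a trypsin fold whose catalytic serine is replaced by another residue. Its probe (ILMN_2609897) read 9.89, 9.65 and 10.03 in hSRY-OFF and 7.34, 5.33 and 7.65 in hSRY-ON lungs, where replicate 2 was not detected. All hSRY-ON values lay below all hSRY-OFF values, with a wide spread among them. The level fell by 3.09, SE 0.56, or 8.49-fold (limma, adjusted p = 0.00936), and it fell by 2.02 without background correction. Prss23, another secreted protease, rose from 5.61, 5.70 and 5.66 to 6.49, 6.43 and 6.12, a change of 0.69 ± 0.14 (SE, limma, adjusted p = 0.0120). Its call was lost without hSRY-OFF replicate 1, and without background correction, where the change was 0.22. Prss36 was not called (limma, adjusted p = 0.297). Prss34 and Prss29, tryptase-like genes, were detected on no array.

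Near background the log2 scale depends on how the background is removed. Without any correction the changes were 0.35 and 0.41 for the Klk11 probes, 0.53 for Tmprss13, 0.29 for Serpina7, 0.68 and 0.74 for Tmprss4 and 0.40 for the called St14 probe, all still called. Those of the brighter Serpina3h and Serping1 were 1.38 and 0.98, close to the reported values. For the probes of Klk11, Serpina7 and Tmprss13, the changes without correction lie below the bounds given above. Those bounds, 0.87 and 0.68, 0.79 and 1.16 on the log2 scale, hold for background-corrected values only.

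**Figure D5:**
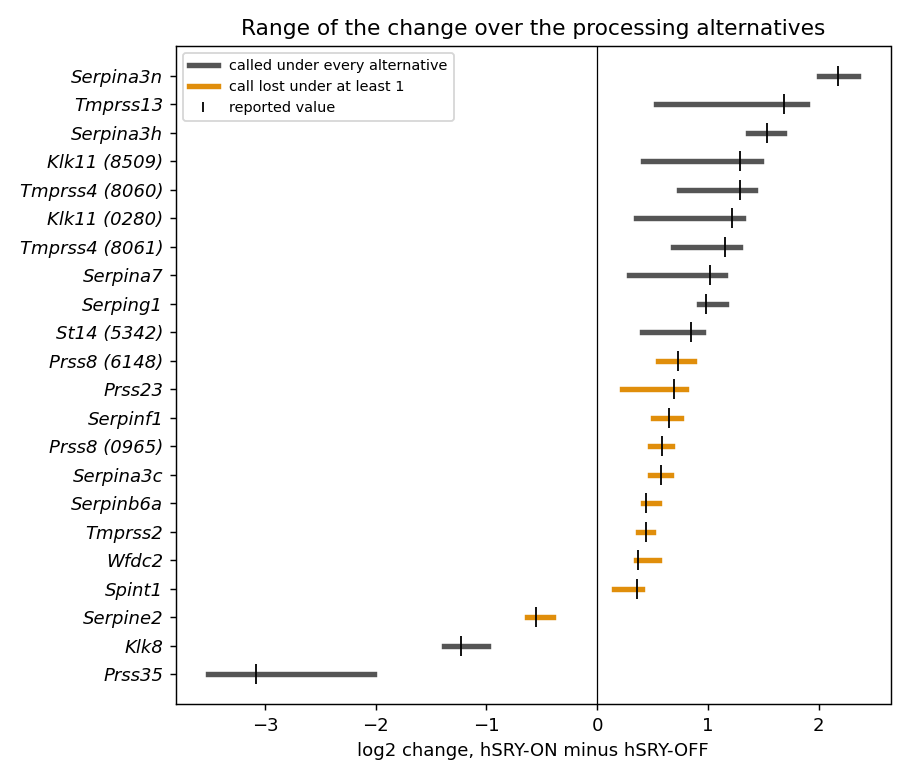
Range of the log2 change (x axis, hSRY-ON minus hSRY-OFF) of each called probe (y axis) over the alternative background corrections, normalizations, filters, variance models and left-out arrays, with the reported value as a tick. Grey bars are the 12 probes of 10 genes that were called under every alternative in which they were tested, and orange bars lost the call at least once. The grey bars of Klk11, Serpina7 and Tmprss13 are probes that had to differ in order to be tested. No bar crosses 0.

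Genes that act with the members were taken from 6 lists of proteases, inhibitors, receptors and substrates. Over the lists, 47 genes were tested, each by its tested probe with the highest mean. Of these, 18 were higher and 5 were lower (limma), where 13.6% and 13.3% of all tested probes were called. Over all probes of the lists, 26 of 52 were called, and 17 without hSRY-OFF replicate 1 or 2.

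The substrates of the membrane proteases included the epithelial sodium channel, which prostasin activates and which drains fluid from the air spaces. Its subunits Scnn1a, Scnn1b and Scnn1g rose by 2.32, 1.55 and 0.64 (limma, adjusted p = 0.000603, 0.000694 and 0.0310). In this list 4 of 8 tested genes were higher, with a median change of 0.60. Hgf, whose growth factor matriptase can activate, was detected on no array.

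In the clotting list 4 of 10 tested genes were higher and 1 was lower, with a median change of 0.46. F13a1, the subunit of the clot-linking transglutaminase that macrophages make, rose by 1.49 from 9.07 ± 0.16 (SD, n = 3) to 10.55 ± 0.30 (SD, n = 3) (limma, adjusted p = 0.00258). F7 and F10, proteases of the clotting cascade, rose by 1.31 and 1.18 (limma, adjusted p = 0.0133 and 0.00866). Macrophage markers were called higher in 5 of 7 genes, with summed levels of 14.58 to 14.69 in hSRY-OFF and 15.13 to 15.63 in hSRY-ON lungs, and their part in these values was not tested. Among the plasminogen activators and receptors, the receptor gene Plgrkt (named 5033414D02Rik on the array) was called, with a change of 0.38 (limma, adjusted p = 0.0488), and Plat, Plau and Plaur were not.

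Mast cell proteases moved in opposite directions. Tpsab1 and Tpsb2 (named Mcpt6 on the array), which encode tryptases, rose by 1.43 and 0.94 (limma, adjusted p = 0.00343 and 0.0481), whereas the chymase Mcpt4 fell by 1.32 (limma, adjusted p = 0.0147). Another chymase gene, Cma1, had changes of 0.41 and 0.42 on its 2 probes and was not called (limma, adjusted p = 0.203 and 0.174). The mast cell marker Cpa3 was not called and Ms4a2 was detected on no array. In the list of leukocyte proteases 3 of 6 tested genes were higher and 1 was lower, and Ctsg, a neutrophil protease, was detected on 2 hSRY-ON arrays and not tested.

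Among other trypsin-like enzymes 3 of 10 tested genes were higher and 1 was lower. Htra1, a secreted protease that cuts matrix proteins, fell by 2.22 and 2.20 on its 2 probes (limma, adjusted p = 0.00780 and 0.00860). Its first probe read 12.50, 12.59 and 12.70 in hSRY-OFF and 9.86, 9.92 and 11.34 in hSRY-ON lungs. Cela1 (named Ela1 on the array), a pancreas-type elastase also known from lung, rose by 1.93 (limma, adjusted p = 0.00140), and its probe was detected on every array but 1 hSRY-OFF array. The complement protease gene C2 rose by 1.37 (limma, adjusted p = 0.00288).

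Of the other inhibitors 3 of 9 tested genes were higher and 2 were lower. Pi16 rose by 1.19 and Wfdc1 by 0.99 (limma, adjusted p = 0.0127 and 0.00483). Wfdc12 was detected on all hSRY-OFF arrays and on no hSRY-ON array, so its probe had to differ in order to be tested. The change of -0.77, computed from undetected hSRY-ON values, was called (limma, adjusted p = 0.00617). Measured against the detection limit of the hSRY-ON arrays in background-corrected values, the fall of Wfdc12 was 1.12-fold or more.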

How the data were processed

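RNA from 6 mouse lungs was measured on Illumina MouseRef BeadChips. The authors deposited, for each probe and array, an intensity that was neither background-corrected nor normalized, and a detection p-value against negative control probes. The software that summarised the beads is not given in the sources used here, and no slide or scan date was given, so batches could not be examined. The study's methods name TCC, a count-based package, and the submitters' processing notes name limma. Here limma 3.58.1 in R 4.3.3 was used because the values are intensities.

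Intensities were processed as in neqc: detection p-values served to estimate the background, 16 was added as an offset, and quantile normalization and log2 followed. Probes detected (p under 0.05) on at least 3 of 6 arrays were tested with lmFit and eBayes, without covariates, two-sided. The offset compresses changes of dim probes. No arrays held identical values. The 6 arrays limit the precision of every value. All 115 member symbols matched RefSeq, 2 of them as older names. Every called member is named, with Slpi, Wfdc2, Spint1, Spint2, St14, Serpine2, Serping1, Serpinf1, Serpinc1, Serpina1a, Prss8 and Tmprss2 whatever their result, and up to 3 called genes of each list. A further gene that the rule named is not reported here. The members and lists were chosen with earlier results of these data known. Alternatives were other background corrections, normalizations, filters, variance models, array weights, a replicate block, a stricter threshold and leaving out each array. The pipeline was tested on simulated data.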

Additional observations from a re-analysis of the deposited data

How the results depend on the processing

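All alternatives were planned. Of the 22 member probes called, 12 kept their call under every alternative in which they were tested, and none changed sign. Among the 12 were both Klk11 probes, Serpina7 and Tmprss13. These had to differ in order to be tested, and were not tested when detection on all arrays was required. At an adjusted p under 0.01 (limma) there were 12 member calls (10 higher), 14 calls among the probes of the pathway lists and 1326 among all probes, by construction fewer. Leaving out 1 array gave 12 to 21 member calls, 10 to 19 of them higher, and 17 to 28 calls in the pathway lists. Calls among all 13841 probes then ranged from 1652 without hSRY-OFF replicate 1 to 4442 without hSRY-ON replicate 1. They were 1748 and 2235 without hSRY-OFF replicate 2 or 3 and 2462 without hSRY-ON replicate 2. The cause of these differences was not tested. The correlations of the deviations of same-numbered arrays were -0.11, 0.10 and -0.09, and those of differently numbered arrays ran from -0.09 to 0.16. These deviations are taken from means of 3 arrays, so the correlations cannot exclude that replicate numbers pair the samples. With the replicate number as a block, 19 member probes were called (17 higher), 15 of the 22 among them, and 2655 of all probes. Probes near background are limited by their signal, and their changes shrink when less background is removed.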

Other observations

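Of the 11 member probes detected on too few arrays to be tested, those for Klkb1, Prss22, Serpinf2, Tmprss13 and Tmprss4 were detected on hSRY-ON arrays alone, on 1 or 2 arrays each. Those for Klk1b16, Klk1b8, Prss27 and Serpinb9e were detected on hSRY-OFF arrays alone, on 1 or 2 arrays each. The spread between replicates was larger in hSRY-ON for 34 of the 44 tested member probes, and the median SD was 0.31 in hSRY-ON and 0.19 in hSRY-OFF on the log2 scale, against 0.22 and 0.13 over all tested probes.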
